A study of Drosophila melanogaster with 20 samples.

Results

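The genes described here encode the enzymes of lower glycolysis, from triose to pyruvate, and lactate dehydrogenase in Drosophila melanogaster. They are Gapdh1, Gapdh2, Pgk, Pglym78, Eno, PyK and ImpL3, chosen by their gene symbols for their place in the pathway, and they are 7 of the 13972 genes used. Each was found once in every expression table. RNA was sequenced from the dissected brain and fat body of wild-type (WT) Oregon-R female flies, in a study of a diet-induced model of type 2 diabetes in the fly. The high sugar diet (HSD) and the normal food (ND) groups are each given with an age of 5 days and 5 days of culture on the food. There are 5 libraries each of fat body on HSD, fat body on ND, brain on HSD and brain on ND, 20 in all, made from poly(A) RNA. The flies pooled for a library, if any, are not stated, and nothing in the labels says that the replicates are separate cohorts, so the tests measure how much these samples vary, and that variation may be technical in part.

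In glycolysis, glyceraldehyde-3-phosphate dehydrogenase (Gapdh1 and Gapdh2) oxidises the triose made from sugar and yields NADH. Phosphoglycerate kinase (Pgk) then makes ATP, phosphoglycerate mutase (Pglym78) moves the remaining phosphate, enolase (Eno) removes water to give phosphoenolpyruvate, and pyruvate kinase (PyK) makes ATP and pyruvate. Lactate dehydrogenase (ImpL3, also called Ldh) reduces pyruvate to lactate and returns NADH to NAD+, which lets glycolysis go on when mitochondria do not take up the NADH. The fat body is the fly's organ of fat and glycogen storage, with roles shared by liver and adipose tissue in mammals. In the fly brain, glia are known for glycolysis and for passing lactate and alanine to neurons.

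Expression was given as RPKM, which divides the reads of a gene by its exon length and by the depth of the library. Comparisons of levels between genes rest on the lengths used, and the annotation behind them is not given. The lengths recovered from the values were 1136 bases for Pglym78, 3511 for Eno and 1390 (ImpL3) to 2336 (PyK) for the others. In units of 1e6 reads, the mapped totals recovered from the RPKM values were 10.7 to 23.4 per fat body HSD library, 5.6 to 40.4 per fat body ND library, 22.6 to 46.3 per brain HSD library and 21.7 to 37.7 per brain ND library. The labelled tissues matched their markers. The 7 neuron markers found (such as elav and brp) summed to 7.70 to 16.2 RPKM in the fat body and to 1367 to 1967 RPKM in the brain. The 6 fat body markers found (such as Yp1 and Lsp2) summed to 39414 to 162884 RPKM in the fat body and to 335 to 9998 RPKM in the brain, with the highest brain value in brain ND 5. Libraries 4 of fat body HSD and 4 and 5 of fat body ND stood apart in their low values, with at most 401 genes at 1 to 3 reads, against at least 1065 in each of the other fat body libraries. Fewer cells of a type and less RNA per cell cannot be told apart in bulk tissue.

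Among the 7 genes, Gapdh2 had the highest mean RPKM in each of the 4 groups and ImpL3 the lowest. In fat body on HSD the order of mean RPKM was Gapdh2, Gapdh1, PyK, Eno, Pglym78, Pgk and ImpL3, and on ND PyK stood before Gapdh1. In brain the order was the same on both diets, Gapdh2, PyK, Pglym78, Eno, Gapdh1, Pgk and ImpL3. Gapdh1 thus stood nearer the top in fat body than in brain. Several neighbours in these orders did not differ beyond their spread. Gapdh1 exceeded PyK in 2 of 5 fat body HSD libraries, and PyK exceeded Gapdh1 in 3 of 5 fat body ND libraries. In brain, Pglym78 exceeded Eno in 2 of 5 HSD and 4 of 5 ND libraries. The ranges of Pgk and ImpL3 were apart in all 4 groups.

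The enzymes other than ImpL3 were among the more abundant transcripts of both tissues. Ranked by mean RPKM among 13972 genes, Gapdh2 was at place 157 in fat body on HSD, 153 in fat body on ND, 66 in brain on HSD and 68 in brain on ND. Pgk, the lowest of these 6, was at place 410, 357, 374 and 362 in the same order. ImpL3 was at place 2660 in fat body on HSD, 1848 in fat body on ND, 7341 in brain on HSD and 7361 in brain on ND. The reads behind these values numbered at least 1687 per library for each of the 6 other genes. ImpL3 had 208 to 1775 reads in fat body and 109 to 470 in brain, where the counting error alone is up to 9.58% of the value.

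**Figure D1:**
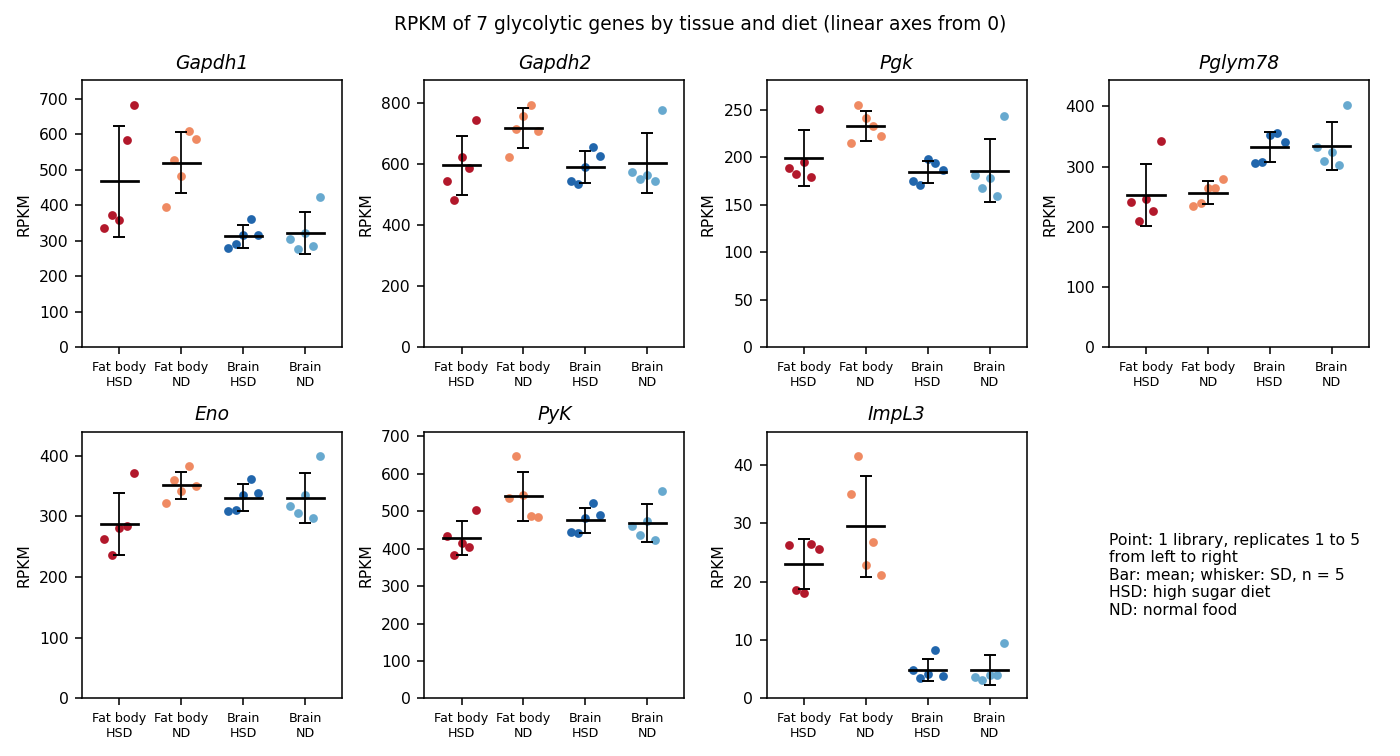
RPKM of each of the 7 genes (linear axes that start at 0) in the 5 libraries of fat body HSD, fat body ND, brain HSD and brain ND, with the mean as a bar and the SD as a whisker. ImpL3 has 18.1 to 41.5 RPKM in fat body and 3.16 to 9.42 RPKM in brain, whereas the ranges of the other 6 genes in fat body and brain lie close together or overlap, and library 5 is the highest of its group for all 7 genes in brain ND.

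The comparison of tissues asked which of the enzymes differ between fat body and brain on the same food. ImpL3 was higher in fat body than in brain on both diets, and it had the largest log2 fold change of the 7 genes. Gapdh1 was higher and Pglym78 lower in fat body on both diets, and Pgk was higher in fat body on ND. Gapdh2, Eno and PyK did not pass the test on either diet, but their calls depended on the scaling. With median-ratio rescaling all 3 passed on ND as higher in fat body (Gapdh2 0.72, Eno 0.54 and PyK 0.65), and with quantile normalization all 3 passed on both diets as lower (-1.24, -0.67 and -1.04 on HSD, and -0.85, -0.37 and -0.60 on ND). Without brain ND 5, Gapdh2 (0.36) and PyK (0.26) passed on ND, and without fat body HSD 5, Eno (-0.32) and PyK (-0.22) passed on HSD. With limma and Benjamini-Hochberg adjustment, 3 members had an adjusted p under 0.05 on HSD, where 74.4% of the 9315 genes tested did, and 4 of 7 on ND, where 74.8% of 9219 did. By direction, 2 members were higher on HSD (27.2% of all genes) and 1 lower (47.3%), and 3 were higher on ND (23.2%) and 1 lower (51.6%).

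ImpL3, which makes lactate from pyruvate, had 26.2, 18.5, 18.1, 26.5 and 25.5 RPKM in fat body on HSD, against 4.90, 3.55, 4.17, 8.21 and 3.84 RPKM in brain on HSD. On ND it had 34.9, 41.5, 22.9, 26.7 and 21.1 RPKM in fat body, against 3.64, 3.16, 3.96, 4.03 and 9.42 RPKM in brain. Every fat body library was above every brain library on each diet, as was so for 22.5% of genes on HSD and 19.3% on ND. ImpL3 was the only 1 of the 7 genes whose groups were apart on HSD, where 64.6% of all genes were apart in either direction, and 1 of 2 on ND, where 63.8% were. The ratio of the mean RPKM of ImpL3 in fat body to that in brain was 4.66 on HSD and 6.08 on ND. On the log2(RPKM + 1) scale, where the added 1 shrinks the differences of genes as low as ImpL3 in brain, the log2 fold change was 2.04 ± 0.21 (SE) on HSD and 2.42 ± 0.27 on ND, with limma adjusted p-values of 4.2e-06 and 8.2e-06. ImpL3 kept its call under each of the scalings, library splits and left-out libraries tried.

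Gapdh1, a glyceraldehyde-3-phosphate dehydrogenase, had 336, 373, 359, 585 and 684 RPKM in fat body on HSD, against 279, 290, 316, 362 and 316 RPKM in brain on HSD. On ND it had 395, 528, 482, 610 and 586 RPKM in fat body, against 304, 276, 323, 284 and 422 RPKM in brain. The groups overlapped on both diets, on HSD through libraries 1 and 3 of fat body and library 4 of brain, and on ND through library 1 of fat body and library 5 of brain. Its log2 fold change was 0.52 ± 0.20 on HSD (limma adjusted p = 0.0332) and 0.69 ± 0.16 on ND (adjusted p = 0.00189). The HSD call was lost in 6 of the 10 fits that left out 1 library, which were those without fat body HSD 4 or 5 or brain HSD 1, 2, 3 or 5, with adjusted p-values up to 0.0736 over the 10 fits. Quantile normalization, which gives every library the same distribution of values, ended the calls on both diets (0.02 on HSD and 0.18 on ND).

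Gapdh2, the second glyceraldehyde-3-phosphate dehydrogenase, had 544, 482, 621, 586 and 742 RPKM in fat body on HSD, against 544, 533, 590, 655 and 627 RPKM in brain on HSD. The corresponding values on ND were 621, 713, 757, 794 and 707 RPKM in fat body, against 574, 551, 562, 545 and 776 RPKM in brain. All 5 fat body ND libraries were above the brain ND mean, but brain ND 5 lay among them. For Gapdh2 the log2 fold change was 0.00 ± 0.12 on HSD (limma adjusted p = 0.986) and 0.26 ± 0.13 on ND (adjusted p = 0.0771). Gapdh1 and Gapdh2 are close paralogs, and uniquely mapped reads were kept, so the reads of stretches that the paralogs share may be missing from both.

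Pgk, which makes ATP, had 188, 182, 195, 179 and 250 RPKM in fat body on HSD, against 175, 170, 198, 194 and 186 RPKM in brain on HSD. On ND it had 215, 255, 241, 233 and 222 RPKM in fat body, against 181, 167, 179, 159 and 243 RPKM in brain. On ND 4 brain libraries lay below every fat body library, and brain ND 5 lay within the fat body range. Fat body minus brain, the log2 fold change was 0.10 ± 0.10 on HSD (limma adjusted p = 0.402) and 0.34 ± 0.13 on ND (adjusted p = 0.0304). The ND call was lost without fat body ND 2 or 3 or any 1 of brain ND 1 to 4, with the replicate block (adjusted p = 0.0571), and under quantile normalization, where the log2 fold change was 0.08.

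Pglym78, the phosphoglycerate mutase, had 241, 209, 247, 226 and 342 RPKM in fat body on HSD, against 305, 308, 352, 356 and 341 RPKM in brain on HSD. On ND it had 234, 240, 264, 265 and 280 RPKM in fat body, against 332, 309, 325, 302 and 403 RPKM in brain. On ND every fat body library was below every brain library, as for 44.5% of genes, whereas on HSD library 5 of fat body reached into the brain range. Pglym78 had a log2 fold change of -0.41 ± 0.13 on HSD (limma adjusted p = 0.0129) and -0.38 ± 0.11 on ND (adjusted p = 0.00930). Median-ratio rescaling, which divides each library by the median of its genes' ratios to the average library, ended both calls and turned the ND difference to 0.08 (-0.15 on HSD).

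Eno, the enolase, had 262, 236, 281, 284 and 372 RPKM in fat body on HSD, against 309, 311, 335, 362 and 338 RPKM in brain on HSD. On ND it had 322, 360, 342, 382 and 349 RPKM in fat body, against 317, 306, 335, 297 and 400 RPKM in brain. On HSD, 4 fat body libraries lay below every brain library and library 5 above every one, and on ND the groups were mixed. Eno had a log2 fold change of -0.22 ± 0.12 on HSD (limma adjusted p = 0.109) and 0.09 ± 0.11 on ND (adjusted p = 0.458).

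PyK, the pyruvate kinase, had 434, 383, 415, 405 and 503 RPKM in fat body on HSD, against 445, 442, 481, 522 and 490 RPKM in brain on HSD. The ND values were 536, 647, 544, 488 and 484 RPKM in fat body, against 459, 437, 473, 422 and 553 RPKM in brain. On HSD 4 fat body libraries were below every brain library, and on ND 4 brain libraries were below every fat body library. The log2 fold change of PyK was -0.16 ± 0.09 on HSD (limma adjusted p = 0.140) and 0.20 ± 0.12 on ND (adjusted p = 0.144).

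**Figure D2:**
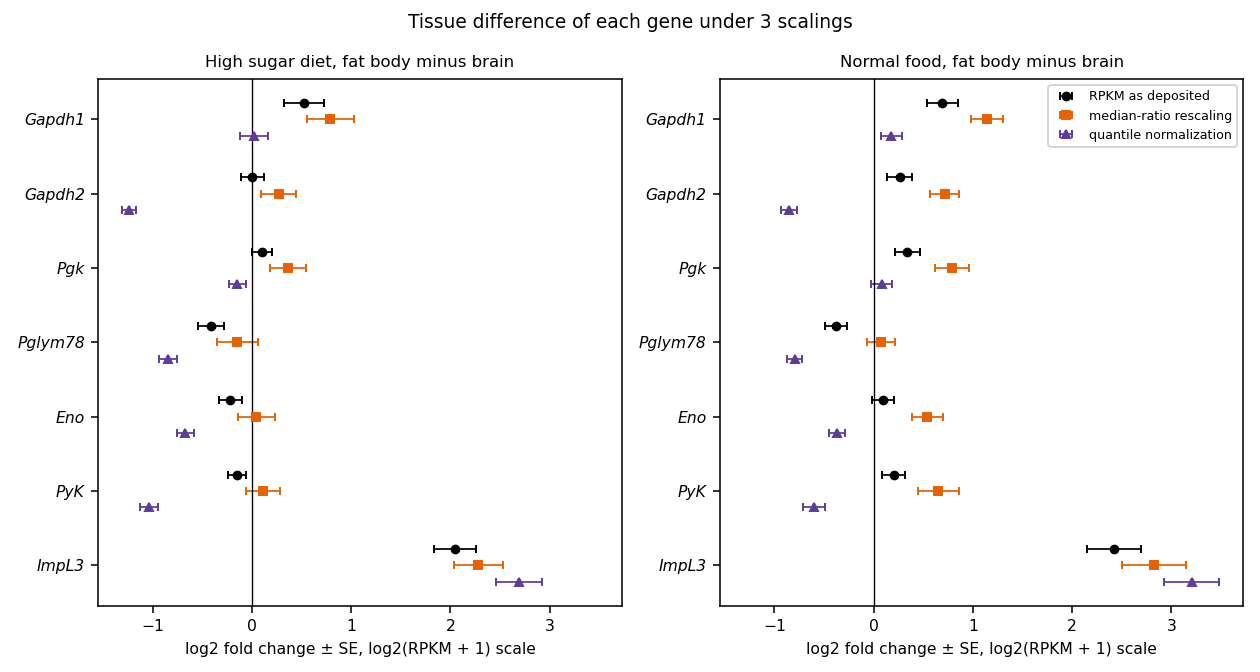
Log2 fold change (fat body minus brain, log2(RPKM + 1) scale, with SE as whiskers) of each gene on the high sugar diet (left) and on normal food (right), for RPKM as deposited, with median-ratio rescaling and with quantile normalization. ImpL3 lies between 2.04 and 3.20 in all 6 estimates, whereas the estimates for Gapdh2, Eno and PyK fall on both sides of 0.

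The scale of the whole library bears on the smaller tissue differences. The RPKM of all genes summed to 614123 to 655675 in fat body on HSD and 604181 to 641095 on ND. In brain they summed to 378698 to 426957 on HSD and 381925 to 468231 on ND. No fit was rescaled to this sum, which was higher in every fat body library. The median log2 fold change of all genes tested, fat body minus brain, was -0.40 on HSD and -0.61 on ND, and -0.15 and -0.19 after median-ratio rescaling. The median of the 7 genes was 0.00 on HSD and 0.26 on ND. All genes tested split into 2531 higher and 4403 lower in fat body on HSD and 2140 and 4756 on ND, and into 3095 and 3903 on HSD and 2984 and 3914 on ND after that rescaling. After quantile normalization the median of all genes was 0.16 on HSD and 0.13 on ND, with 3968 higher and 3268 lower on HSD and 3790 and 3205 on ND. Muscle markers, which mark another tissue rich in these enzymes, were also higher in fat body libraries. All 12 were found, none was at 0 in every library of a group, and they summed to 396 to 675 RPKM in fat body on HSD and 268 to 672 RPKM on ND, against 21.3 to 107 RPKM in brain on HSD and 26.7 to 87.6 RPKM on ND. Their part in the tissue differences was not tested.

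Ratios between members within a library do not depend on the scale of the library, and 5 of the 6 ratios computed were apart between fat body and brain on both diets. PyK to Eno was the exception, and 3 of the 6 are given here. Of single genes, 64.6% on HSD and 63.8% on ND were apart between the tissues. That share was not computed for ratios of other genes, and the 6 ratios were chosen with the members' values known. The ratio of Gapdh2 to Gapdh1 was 1.62, 1.29, 1.73, 1.00 and 1.08 in fat body on HSD, against 1.95, 1.84, 1.87, 1.81 and 1.98 in brain on HSD. On ND it was 1.57, 1.35, 1.57, 1.30 and 1.21 in fat body, against 1.89, 2.00, 1.74, 1.92 and 1.84 in brain. The fat body ratios were below the brain ratios on both diets without overlap. Gapdh1 made up 20.4% ± 3.99 of the summed RPKM of the 7 genes in fat body on HSD and 19.6% ± 2.32 in fat body on ND, against 14.0% ± 0.466 in brain on HSD and 14.3% ± 0.613 in brain on ND (SD, n = 5 each). Within the fat body this share was 21.8 to 25.5% in the 4 libraries numbered 4 and 5 and 16.5 to 19.8% in the 6 numbered 1 to 3, on both diets, and the part of the library numbers in it was not tested.

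The ratio of Pglym78 to Eno, the enzymes of adjacent steps, was 0.795 to 0.921 in fat body on HSD, against 0.982 to 1.05 in brain on HSD. On ND it was 0.666 to 0.802 in fat body, against 0.971 to 1.05 in brain. Thus Pglym78 and Eno had nearly equal RPKM in brain, and Pglym78 was the lower of the pair in all 10 fat body libraries. Between diets in fat body, the ratio averaged 0.880 ± 0.0514 on HSD and 0.732 ± 0.0561 on ND (SD, n = 5 each), with the lowest HSD value, 0.795, just under the highest ND value, 0.802.

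The ratio of ImpL3 to PyK, which use and make pyruvate in consecutive steps, was 0.0435 to 0.0654 in fat body on HSD, against 0.00784 to 0.0157 in brain on HSD. On ND it was 0.0422 to 0.0652 in fat body, against 0.00723 to 0.0170 in brain. Lactate dehydrogenase RNA was therefore a small fraction of pyruvate kinase RNA in both tissues, and a smaller one in brain. Between diets the mean ratio in fat body differed by less than the spread between libraries, at 0.0537 ± 0.00897 on HSD and 0.0540 ± 0.0109 on ND (SD, n = 5 each). No test was run on these ratios, because they were chosen with the members' values known.

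**Figure D3:**
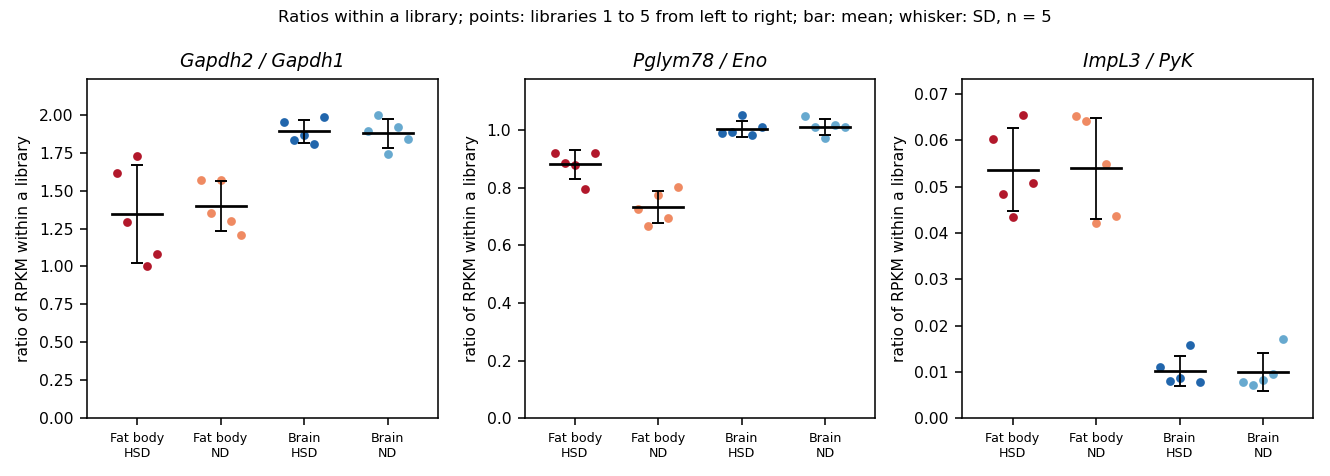
Ratio of RPKM within a library for Gapdh2 over Gapdh1, Pglym78 over Eno, and ImpL3 over PyK (linear axes that start at 0) in the 5 libraries of fat body HSD, fat body ND, brain HSD and brain ND, with mean and SD. The fat body and brain libraries do not overlap in any of the 3 ratios on either diet.

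The comparison of diets in the fat body asked whether the high sugar diet moved these enzymes in the tissue that stores sugar as fat and glycogen. All 7 genes had a lower mean on HSD than on ND, by 0.04 to 0.33 on the log2 scale, but none passed the test. A lower mean on HSD was found for 23.6% of the 8223 genes tested. The largest differences by unadjusted p were those of PyK, Eno and Gapdh2, at the last steps and the first step of lower glycolysis. Pglym78 had nearly the same mean on both diets.

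No gene in the whole table was past the adjusted threshold of 0.05 in this comparison when the fat body was fitted alone with all its libraries (0 of 8223 with limma, and 0 of 8221 with limma-voom on the recovered reads). At an unadjusted p under 0.05 there were 785 genes (9.55%) with limma, 639 higher and 146 lower on HSD, and 521 higher and 127 lower with limma-voom. The split turned with the scaling, to 125 higher and 215 lower with median-ratio rescaling and 237 higher and 222 lower with quantile normalization. Past the adjusted threshold there were 33 higher and 12 lower genes in the fit of all 20 libraries, 3 and 16 without fat body HSD 5, and 5 and 11 within libraries 1 to 3, with no member among them. Among the 7 genes, 3 were lower at an unadjusted p under 0.05, where 1.78% of all genes were. The median log2 fold change of the 7 was -0.28, beside 0.19 for all genes tested. No member had HSD and ND libraries fully apart, as 1.91% of all genes did.

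PyK averaged 428 ± 45.8 RPKM in fat body on HSD and 540 ± 66.1 RPKM on ND (SD, n = 5 each). All 5 HSD libraries of PyK were below the ND mean, and 4 were below every ND library, with HSD 5 (503 RPKM) the exception. The log2 fold change of PyK was -0.33 ± 0.12, with an unadjusted p of 0.0151 and a limma adjusted p of 0.427. Eno averaged 287 ± 51.0 RPKM on HSD and 351 ± 22.4 RPKM on ND. Again 4 HSD libraries of Eno lay below every ND library, and HSD 5 (372 RPKM) exceeded all but ND 4. The log2 fold change of Eno was -0.31 ± 0.13, with an unadjusted p of 0.0337 and a limma adjusted p of 0.496.

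Gapdh2 averaged 595 ± 97.1 RPKM on HSD and 718 ± 65.1 RPKM on ND, with 3 HSD libraries below every ND library. Its log2 fold change was -0.28 ± 0.13, with an unadjusted p of 0.0471 and a limma adjusted p of 0.519. Pgk averaged 199 ± 29.4 RPKM on HSD and 233 ± 15.9 RPKM on ND, and 4 HSD libraries were below every ND library (log2 fold change -0.24 ± 0.12, limma adjusted p = 0.549). Gapdh1 averaged 467 ± 157 RPKM on HSD and 520 ± 85.8 RPKM on ND, with HSD libraries 1 to 3 below every ND library and HSD 5 above every one (-0.20 ± 0.21, limma adjusted p = 0.794). Gapdh1 thus had the widest spread of the 6 abundant genes in fat body on HSD, a coefficient of variation of 33.6%.

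ImpL3 averaged 23.0 ± 4.28 RPKM on HSD and 29.4 ± 8.59 RPKM on ND. All 5 HSD libraries of ImpL3 were below the ND mean, which ND 1 and 2 (34.9 and 41.5 RPKM) held up, while ND 3, 4 and 5 (22.9, 26.7 and 21.1 RPKM) lay within or near the HSD range. Its log2 fold change was -0.32 ± 0.22, with a limma adjusted p of 0.660. The 8 ovary markers summed to 3343, 3940, 251, 8853 and 244 RPKM in fat body ND 1 to 5. In fat body HSD 1 to 5 they summed to 24.3, 681, 184, 223 and 1021 RPKM. Their part in the ImpL3 values was not tested. Pglym78 averaged 253 ± 52.0 RPKM on HSD and 257 ± 19.3 RPKM on ND, with 4 of 5 HSD libraries below the ND mean and HSD 5 above every ND library. Its log2 fold change was -0.04 ± 0.14, with a limma adjusted p of 0.959.

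**Figure D4:**
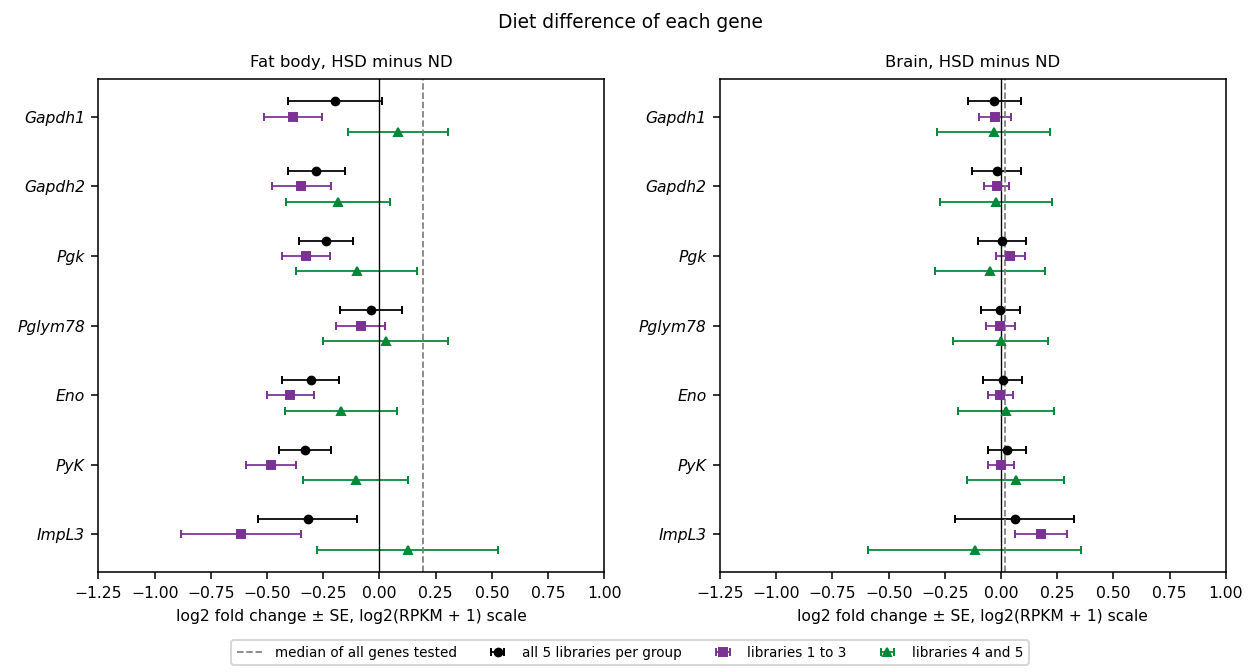
Log2 fold change (HSD minus ND, log2(RPKM + 1) scale, with SE as whiskers) of each gene in fat body (left) and brain (right), for all 5 libraries per group, for libraries 1 to 3 and for libraries 4 and 5. The 7 fat body estimates from all libraries lie between -0.33 and -0.04, below the median of all genes (dashed, 0.19), and those from libraries 4 and 5 lie nearer to 0.

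The differences were larger in libraries 1 to 3 than in libraries 4 and 5, and none passed the test in either set. In libraries 1 to 3 the log2 fold changes were -0.39 for Gapdh1, -0.35 for Gapdh2, -0.33 for Pgk, -0.08 for Pglym78, -0.40 for Eno, -0.48 for PyK and -0.62 for ImpL3. In libraries 4 and 5 they were 0.08, -0.18, -0.10, 0.03, -0.17, -0.11 and 0.13 in the same order. Gapdh1, Pglym78 and ImpL3 therefore had the opposite sign in libraries 4 and 5. Median-ratio rescaling, which brought the median of all genes to -0.01, gave -0.27 for Pglym78 and -0.43 to -0.56 for the other 6.

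Library HSD 5 stood out in the fat body. It was the highest HSD library for Gapdh1, Gapdh2, Pgk, Pglym78, Eno and PyK, and the summed RPKM of the 7 genes was 2918 there, against 1884 to 2291 in the other 4 HSD libraries and 2357 to 2798 in the ND libraries. Yolk protein RNA (Yp1 to Yp3), made by the female fat body, took 13.7% of reads in HSD 5, 5.86 to 7.37% in the other HSD libraries and 9.90 to 25.0% in the ND libraries. The fat body markers include Yp1 to Yp3, so their sum is not a separate measure. It was 90032 RPKM in HSD 5, 39414 to 48679 RPKM in the other HSD libraries and 66410 to 162884 RPKM in the ND libraries. Without HSD 5 the log2 fold changes of Eno and PyK were -0.40 and -0.39, with limma adjusted p-values of 0.165 and 0.211. Both oenocyte markers found, Cyp4g1 and eloF, summed to 10206 to 23122 RPKM on HSD and 7564 to 11685 RPKM on ND, and the 8 ovary markers to 24.3 to 1021 RPKM on HSD and 244 to 8853 RPKM on ND. The highest HSD value of the ovary markers was that of HSD 5. The 7 gut markers summed to 232 RPKM in HSD 5, 26.3 to 116 RPKM in the other HSD libraries and 21.4 to 72.0 RPKM on ND. The part of these cell types in the diet differences of the members was not tested.

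In the brain the 7 genes had nearly the same mean on both diets. With limma and Benjamini-Hochberg adjustment none of them passed, none was at an unadjusted p under 0.05 (0.887% of all genes were), none had HSD and ND libraries apart (0.157% of all genes did), and every log2 fold change lay between -0.03 and 0.06. The adjusted p was 1.00 for each. The median of the 7 was 0.01, beside 0.02 for all 8910 genes tested. Of these, 0 passed with limma and 0 of 8908 with limma-voom. At an unadjusted p under 0.05 there were 66 higher and 13 lower with limma, and 75 higher and 16 lower with limma-voom.

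Gapdh1 averaged 313 ± 32.0 RPKM in brain on HSD and 322 ± 59.1 RPKM on ND (SD, n = 5 each), and Gapdh2 averaged 590 ± 52.3 RPKM on HSD and 602 ± 97.9 RPKM on ND. Pgk averaged 185 ± 11.9 RPKM on HSD and 186 ± 33.2 RPKM on ND, and Pglym78 averaged 332.6 ± 24.3 RPKM on HSD and 334.2 ± 40.4 RPKM on ND. Eno averaged 331 ± 21.9 RPKM on HSD and 331 ± 41.0 RPKM on ND, and PyK averaged 476 ± 33.2 RPKM on HSD and 469 ± 51.0 RPKM on ND. The means differed by far less than the SD in every case. The standard errors of the log2 fold changes were 0.08 to 0.12 for these 6 genes. ImpL3 averaged 4.93 ± 1.90 RPKM on HSD and 4.84 ± 2.58 RPKM on ND, with a log2 fold change of 0.06 ± 0.27.

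Library ND 5 was the highest of the 10 brain libraries for all 7 genes. Their summed RPKM was 2806 there, against 2057 to 2458 in the HSD libraries and 2013 to 2200 in the other 4 ND libraries. The RPKM of all genes also had its highest sum in ND 5, at 468231. That sum was 378698 to 426957 in the HSD libraries and 381925 to 397301 in the other 4 ND libraries. The 7 genes took 0.530% of reads in ND 5, 0.395 to 0.470% in HSD and 0.384 to 0.424% in the other 4. The part of the library-wide rise in the values of the 7 genes was not tested. In the same library the fat body markers summed to 9998 RPKM, against 335 to 3600 RPKM in the other 9 brain libraries, and the neuron markers to 1367 RPKM, the lowest of the 10. The 5 glia markers found summed to 2075 RPKM there, the highest of the 10. ImpL3 was at 9.42 RPKM in ND 5 and 8.21 RPKM in HSD 4, and at 3.16 to 4.90 RPKM in the other 8 brain libraries. Brain HSD 4 had the highest eye markers (2190 RPKM over 6 genes, against 70.2 to 226 RPKM in the other 9 brain libraries) and gut markers (383 RPKM over 7 genes, against 0.632 to 11.7 RPKM). The part of these other tissues in the ImpL3 values was not tested.

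**Figure D5:**
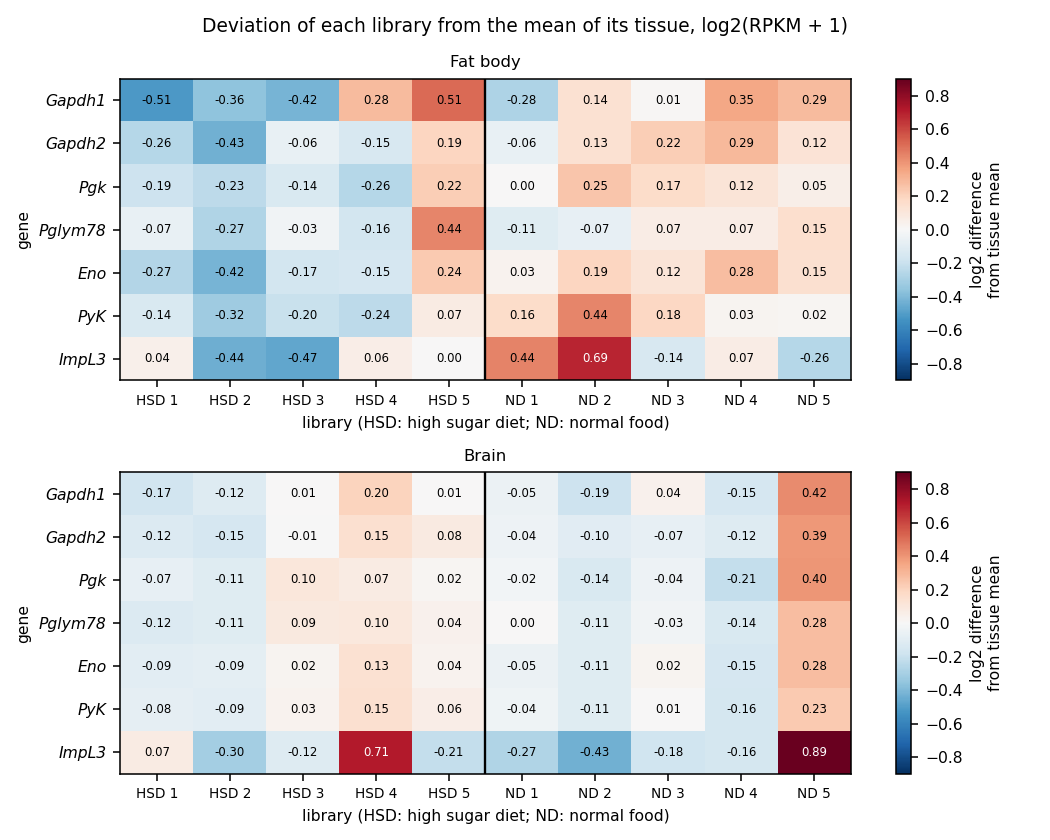
Difference of log2(RPKM + 1) of each gene in each library from the mean of the 10 libraries of its tissue, with fat body above and brain below, and HSD libraries left of ND libraries. Brain ND 5 is above the mean for all 7 genes, by 0.23 to 0.89, and fat body HSD 2 is below the mean for all 7, by 0.23 to 0.44.

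Whether the diet acted differently in the 2 tissues was tested as an interaction in a fit of all 20 libraries. All 7 estimates were negative, that is, the HSD minus ND difference was lower in fat body than in brain, as it was for 24.9% of all genes, but none passed the test. PyK had the smallest unadjusted p, 0.0205, with an estimate of -0.36 ± 0.14 and a limma adjusted p of 0.772. It was the only member at an unadjusted p under 0.05, where 0.679% of all genes were lower and 6.44% differed in either direction. The median of the 7 was -0.26, beside 0.16 for all 9280 genes tested, of which 0 passed with limma and 0 of 9278 with limma-voom. Past the adjusted threshold there were 219 higher and 58 lower genes within libraries 1 to 3, with no member among them. Without fat body ND 4, ND 5 and HSD 4 there were 19 higher and 4 lower, again with no member. At an unadjusted p under 0.05 there were 535 higher and 63 lower genes with limma, and 509 higher and 60 lower with limma-voom. With median-ratio rescaling there were 120 higher and 107 lower, and with quantile normalization 142 higher and 130 lower.

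The 7 genes moved together across libraries more closely in brain than in fat body, and ImpL3 followed the others least. Over the 10 brain libraries, Pearson's r between log2 values had a median of 0.95 (0.92 to 0.99) for the 15 pairs without ImpL3 and of 0.83 for the 6 pairs with it. Over the 10 fat body libraries the medians were 0.71 (0.34 to 0.96) and 0.37 (-0.03 to 0.75). Without brain ND 5 the brain medians were 0.90 and 0.65. Without fat body ND 4, ND 5 and HSD 4 the fat body medians were 0.79 and 0.49. Each pair shares its libraries and their scale, so these values are descriptions without a test.

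Genes whose log2 values followed the mean of the 7 most closely were sought among genes with a mean of at least 5 RPKM. In fat body, of 6602 genes over 10 libraries, these were smp-30 (r = 0.93), CG5362 (0.92), CG7322 (0.91), Ald (0.90) and CG10516 (0.89). Ald is aldolase, the enzyme that splits the hexose just before lower glycolysis, and CG5362 is listed here with the malate dehydrogenases of the NADH shuttles. In brain, of 7320 genes, they were CG14933 and CG42486 (both 0.99), Dip-C (0.98), sesB (0.98), the adenine nucleotide translocase, and Oda (0.98). CG14933 and CG42486 hold identical values and cannot be told apart. ImpL3 alone was followed most closely in fat body by Vml (0.88), Got2 (0.86), CG5793 (0.85), CG3603 (0.85) and CG42329 (0.85), and in brain by lbm, nop5, CG34325, CG8602 and Mcr, at 0.94 to 0.95.

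Several of the enzymes have further gene copies in the fly, several of them known for expression in the testis, and most of these were low here. Of 10 such paralogs found, CG7059, a phosphoglycerate mutase copy, and CG12229, a pyruvate kinase copy, were the ones that passed the filter on low values. Both passed it through brain alone, as their means in fat body were under 1 RPKM on each diet. A lower level in fat body was therefore set by the filter, and no p is given. Of all genes tested, 47.3% were lower in fat body on HSD and 51.6% on ND. CG7059 had 0 to 0.377 RPKM in fat body on HSD and 0 to 0.208 RPKM on ND, against 7.66 to 10.6 RPKM in brain on HSD and 8.43 to 9.41 RPKM on ND. Its log2 fold change between tissues was -3.09 on HSD and -3.18 on ND. CG12229 had 0.128 to 2.57 RPKM in fat body on HSD and 0.331 to 1.46 RPKM on ND, against 3.05 to 4.51 RPKM in brain on HSD and 3.21 to 5.12 RPKM on ND, and it too was lower in fat body (-1.50 and -1.62). The other 8 paralogs reached at most 1.497 RPKM in any library. Brain thus had a second, low phosphoglycerate mutase transcript beside Pglym78.

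Upper glycolysis differed between tissues gene by gene. Of 9 genes found, 6 were tested, and in fat body 3 were higher and 2 lower on HSD, and 4 higher and 2 lower on ND. Of all genes tested, 27.2% were higher and 47.3% lower on HSD, and 23.2% higher and 51.6% lower on ND. Hex-C, the hexokinase known from the fat body, had 233 to 316 RPKM in fat body on HSD and 236 to 387 RPKM on ND, against 3.06 to 8.13 RPKM in brain on HSD and 3.68 to 7.79 RPKM on ND. Hex-A, the general hexokinase, was the reverse, with 26.0 to 61.3 RPKM in fat body on HSD and 34.6 to 45.1 RPKM on ND, against 152 to 185 RPKM in brain on HSD and 150 to 164 RPKM on ND. Pfk, the phosphofructokinase that commits sugar to glycolysis, was also lower in fat body, with a log2 fold change of -1.04 on HSD (limma adjusted p = 4.8e-07). On ND Pgi, which isomerises hexose phosphate, was higher in fat body by 1.39 (limma adjusted p = 2.5e-06). On diet in fat body none of the 6 passed, and Pgi had the smallest p (-0.55 ± 0.20, unadjusted p = 0.0173, limma adjusted p = 0.442). The median of the 6 was -0.22 in fat body and -0.01 in brain.

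Among 13 tested genes of pyruvate and lactate fate, 8 were higher and 3 lower in fat body on HSD, and 7 were higher and 1 lower on ND, beside 27.2% higher and 47.3% lower on HSD and 23.2% higher and 51.6% lower on ND for all genes. Sln, a monocarboxylate transporter, was almost absent from fat body, with 0 to 0.262 RPKM on HSD and 0 to 0.448 RPKM on ND. In brain it had 29.7 to 36.1 RPKM on HSD and 27.9 to 35.7 RPKM on ND. Sln passed the filter on low values through brain alone, so no p is given for it. Men, the malic enzyme that makes pyruvate and NADPH, had 391 to 710 RPKM in fat body on HSD and 624 to 1255 RPKM on ND, against 56.8 to 77.1 RPKM in brain on HSD and 58.3 to 115.3 RPKM on ND. CG1516, a pyruvate carboxylase, was higher in fat body by 2.82 on HSD and 3.08 on ND. On diet in fat body, 3 of 12 were lower at an unadjusted p under 0.05, where 1.78% of all genes were, namely CG1640, an alanine aminotransferase (-0.53), CG9396, a mitochondrial pyruvate carrier homolog (-0.65), and Men (-0.70), and none passed the adjusted threshold.

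Genes of the shuttles that carry the electrons of NADH into mitochondria, an alternative to lactate dehydrogenase, were also compared between tissues. Of 6 tested, 5 were higher in fat body and 1 lower on HSD (27.2% and 47.3% of all genes), and 5 higher and 0 lower on ND (23.2% and 51.6%). Gpo-1 and Gpdh, the enzymes of the glycerol phosphate shuttle, were higher by 2.14 and 1.65 on HSD and by 1.80 and 1.71 on ND. CG5362 was higher by 1.48 on HSD and 1.77 on ND. On diet in fat body, the aspartate aminotransferases Got1 (-0.89 ± 0.22) and Got2 (-0.62 ± 0.17), and CG5362 (-0.39 ± 0.15) were lower at an unadjusted p under 0.05 (1.78% of all genes were), with limma adjusted p-values of 0.248, 0.268 and 0.449. Of the 4 gluconeogenesis genes tested, all 4 were higher in fat body on HSD (27.2% of all genes) and on ND (23.2%), and on diet in fat body none passed. Among them fbp, fructose-bisphosphatase, had log2 fold changes of 5.70 on HSD and 5.92 on ND between tissues. Pepck, which makes phosphoenolpyruvate, had 6.95 on ND. Of the 4, CG10924 had a mean under 1 RPKM in brain on both diets and passed the filter through fat body alone.

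Regulators known for acting on glycolytic genes in flies were also counted. Of 8 tested, 6 were higher and 1 lower in fat body on each diet (27.2% and 47.3% of all genes on HSD, 23.2% and 51.6% on ND). The transcription factor sug had the largest tissue difference of the 8 (5.92 on HSD and 5.38 on ND). On diet in fat body none passed, and 4 of 8 were higher on HSD at an unadjusted p under 0.05, where 7.77% of all genes were. The 3 with the smallest p were bigmax (0.53 ± 0.14), the partner of the sugar sensor Mondo, sug (0.63 ± 0.23), and ERR (0.56 ± 0.23), the estrogen-related receptor known for inducing glycolytic genes in larvae. With median-ratio rescaling none of the 4 was under that threshold (bigmax 0.30 ± 0.16, sug 0.40 ± 0.26 and ERR 0.34 ± 0.28). ERR had 16.8 to 27.7 RPKM in fat body on HSD and 8.85 to 18.2 RPKM on ND. In brain none of the 6 lists had a gene at an unadjusted p under 0.05 on diet.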

How the data were processed

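RNA was sequenced from 20 libraries, 5 each of fat body and brain on HSD and on ND. The deposited values are RPKM per gene, computed by the authors from uniquely mapped reads of poly(A) RNA, per the labels. TopHat and the dm3 assembly are named, without a version, per the submitters' processing notes, and the gene annotation and counting tool are not given in the sources used here, nor is strand. Each table held 15080 entries. The 188 symbols that named several entries (1107 entries) and 2 symbols not in every table were left out, which left 13972 genes. No pair of tables was identical (0 found). No coordinates are given, since only an annotation of another assembly was given.

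Read numbers were solved from the RPKM values with 1 mapped total for each library and 1 length for each gene, and 99.96% of the values above 0 were within 0.01 of a whole read. They gave the depth and the counting error, which covers counting only, as amplified reads are not independent molecules. With Python 3.11.15 and pandas 2.3.3 the tables were joined. With limma 3.58.1 in R 4.3.3, log2(RPKM + 1) was fitted with an intensity trend over all genes with a mean of at least 1 RPKM in the libraries of the fit, two-sided, with Benjamini-Hochberg adjustment over all genes tested and a threshold of 0.05. Each tissue was fitted apart for diet, each diet apart for tissue, and all 20 libraries for the interaction. The fits were tested on simulated data. Fold changes are HSD minus ND or fat body minus brain.

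The members, ratios and gene lists were chosen with earlier results of these data known. All 7 members are named whatever their values, and at most the 3 genes with the smallest unadjusted p per list and comparison. The genes named for a like pattern are the 5 with the highest Pearson's r. Alternatives were a pseudocount of 0.1, no filter and a filter of 5 RPKM, limma-voom on recovered reads, median-ratio rescaling, quantile normalization, a fit of all 20 libraries, the replicate block, libraries 1 to 3 and libraries 4 and 5 apart, 3 fat body libraries left out together, and each library left out in turn. Same-numbered HSD and ND libraries deviated together, with correlations of 0.13 to 0.65 in fat body and 0.30 to 0.66 in brain, all above the 0.1 set for pairing, so they were treated as paired in the replicate block. The same number was the best match in both directions for libraries 3 and 4 in fat body and 5 in brain. Each other library, or its same-numbered partner, correlated best with a library of another number. The replicate block is therefore an alternative setting, and the labels do not say what a number marks. Same-numbered fat body and brain libraries (-0.23 to 0.15) were not paired.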

Additional observations from a re-analysis of the deposited data

Results flagged for a closer look

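In 40 groups of 5 libraries (each of the 7 genes and 3 ratios in 4 groups), 6 held a library far from the other 4 relative to the range of the group. Chance gives about 1 such library in 20 groups. The 40 groups share the same libraries, and the genes moved together across them. They are not independent, so the 6 flags cannot be judged against that rate. In brain ND 5, Gapdh2 had 776 RPKM (545 to 574 RPKM in the other 4 ND libraries), Pgk had 243 RPKM (159 to 181 RPKM) and ImpL3 had 9.42 RPKM (3.16 to 4.03 RPKM). In fat body HSD 5, Pgk had 250 RPKM (179 to 195 RPKM in the other 4 HSD libraries) and Pglym78 had 342 RPKM (209 to 247 RPKM). In brain HSD 4, ImpL3 had 8.21 RPKM (3.55 to 4.90 RPKM). In brain ND 5, yolk protein genes took 1.44% of reads, against 0.0465 to 0.516% in the other 4 ND libraries, and in fat body HSD 5 they took 13.7%, against 5.86 to 7.37% in the other 4 HSD libraries. The sum of all RPKM was 468231 in brain ND 5 and 381925 to 397301 in the other 4 ND libraries. In fat body HSD 5 it was 655675, against 614123 to 654056 in the other 4 HSD libraries. The part of the library scale and of other cell types in these libraries was not tested.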

How the results depend on the processing

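No member passed the threshold for diet in fat body, diet in brain or the interaction under any setting run. Median log2 fold changes of the 7 genes moved by more than the spread between libraries under 3 settings. That spread is the SD within groups of the mean log2(RPKM + 1) of the 7 genes. With median-ratio rescaling they were -0.51 for diet in fat body, 0.27 and 0.72 for tissue on HSD and on ND, and -0.47 for the interaction. With quantile normalization they were -0.67 and -0.37 for tissue on HSD and on ND. Within libraries 4 and 5 they were -0.10 for diet in fat body and -0.054 for the interaction. Of the tissue calls, 6 members passed on ND with median-ratio rescaling, 5 members passed on HSD with quantile normalization and 1 on ND within libraries 4 and 5, where fewer samples enter. The replicate block, in which same-numbered HSD and ND libraries are paired, left the diet in fat body estimates as they were (PyK -0.33, adjusted p = 0.371) and, of the member calls, ended that of Pgk between tissues on ND (0.34), whose numbers do not pair tissues.

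Signs turned as follows, and the cause was not tested. Without fat body ND 4, ND 5 and HSD 4, Pglym78 was at 0.056 for diet in fat body and 0.059 for the interaction. Within libraries 4 and 5, diet in fat body gave 0.082 for Gapdh1, 0.028 for Pglym78 and 0.13 for ImpL3, the interaction gave 0.12, 0.030 and 0.24 for the same genes, and diet in brain gave -0.048 for Pgk and -0.12 for ImpL3. Diet in brain, near 0 throughout, also turned with median-ratio rescaling (Pgk -0.0096, Eno -0.0081), quantile normalization (Gapdh2 0.014) and libraries 1 to 3 (Eno -0.0037, PyK -0.00080). Tissue on HSD turned with median-ratio rescaling (Eno 0.045, PyK 0.11), quantile normalization (Gapdh2 -1.24, Pgk -0.15) and libraries 1 to 3 (Gapdh2 -0.024). Tissue on ND turned with median-ratio rescaling (Pglym78 0.075) and quantile normalization (Gapdh2 -0.85, Eno -0.37, PyK -0.60).

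Leaving out each library in turn gave -0.15 to 0.024 for Pglym78 on diet in fat body, -0.15 to 0.026 for its interaction, and -0.081 to 0.075 for Gapdh2 between tissues on HSD. For diet in brain it gave -0.084 to 0.073 for Gapdh1, -0.059 to 0.075 for Gapdh2, -0.047 to 0.11 for Pgk, -0.037 to 0.067 for Pglym78, -0.030 to 0.077 for Eno, -0.011 to 0.086 for PyK and -0.11 to 0.29 for ImpL3, the highest of each without brain ND 5. ImpL3 in brain rests on as few as 109 reads in a library, a counting error of up to 9.58%, beside a coefficient of variation of 38.5% on HSD and 53.3% on ND.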
